A study of Mus musculus with 2 samples.

Results

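A dense array of microRNA (miRNA) hairpins lies in 1 intron of Sfmbt2 on mouse chromosome 2, and its small RNAs were examined in the testes of wild-type (WT) and Hsp90α knockout (KO) fetuses. The members were the genes that GENCODE release M21 types as miRNA inside Sfmbt2 on GRCm38, which gave 119 of the 2202 annotated mouse miRNA hairpins. Reads of at least 16 nt that lay exactly and in sense orientation inside a member were counted, and a read shared by several members was counted once. Levels are reads per 1000000 hairpin-matching reads of the library, written RPM.

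Small RNA was sequenced from 1 library per genotype, WT and Hsp90-alpha KO, and each library held RNA of 20 whole testes pooled from C57BL/6 fetuses at E16.5, obtained by natural mating. Hsp90α is a cytosolic chaperone encoded by Hsp90aa1. The WT library held 6409305 reads and the KO library 5589326 reads, of which 39.4% and 45.8% matched a hairpin. With a single pooled library per genotype, no difference has a replicate check, every test on reads compares the 2 libraries and not the genotypes, and the intervals cover counting error only. Transcripts of Hsp90aa1 matched 22 reads in WT and 37 in the library labelled KO, of which 2 and 10 matched no other gene. The extent of the deleted sequence is not given in the sources used here. These fragments therefore do not check the label, and every direction given for the KO library rests on it.

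Sfmbt2 encodes a Polycomb-related protein and is imprinted, being expressed from the paternal allele in the early embryo and placenta. Which allele is used in the fetal testis was not examined here. Its intronic miRNA cluster is specific to rodents, arose by repeated duplication of short units and is best known from trophoblast and embryonic stem cells. Each hairpin is cut by Drosha and Dicer, which can leave a mature RNA from the 5′ arm and another from the 3′ arm, and bases 2 to 8 of a mature RNA form the seed that pairs with target mRNAs.

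The most-read sequences of the 11 products with at least 20 reads are printed first because the comparison of the libraries turns on them. A product is a group of reads from the same arm in which each 5′ end lies within 2 nt of the next. Groups in different hairpins were joined where they shared a read. Each sequence is DNA as read, 5′ to 3′, with the seed in capitals.
Mir467a 5′ arm: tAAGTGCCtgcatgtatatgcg
Mir467c 5′ arm: tAAGTGCGtgcatgtatatgtg
Mir467d 5′ arm: aTAAGTGCgcgcatgtatatg
Mir467e 5′ arm: tAAGTGTGagcatgtatatgtg
Mir467a 3′ arm: aTATACATacacacacctacac
Mir466b 3′ arm: aTACATACacgcacacataagac
Mir669a 3′ arm: aCATAACAtacacacacacgta
Mir669a 5′ arm: aGTTGTGTgtgcatgttcatgtct
Mir669c 5′ arm: aTAGTTGTgtgtggatgtgtgtat
Mir669d 5′ arm: aCTTGTGTgtgcatgtatatgt
Mir669b 5′ arm: aGTTTTGTgtgcatgtgcatg
The 5′ sequences were rich in G and T and, Mir669c apart, shared the letters gcatgt, and the 3′ sequences were rich in A and C.

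Hairpins of Mir669 and Mir466 show how the 2 arms face each other. They are given on the plus strand of GRCm38, the strand of Sfmbt2, with the most-read sequence of each arm in capitals.
Mir669a-1, chr2:10476853-10476949: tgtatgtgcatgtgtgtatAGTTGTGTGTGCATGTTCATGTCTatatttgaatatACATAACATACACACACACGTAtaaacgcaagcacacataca
Mir466b-1, chr2:10474219-10474300: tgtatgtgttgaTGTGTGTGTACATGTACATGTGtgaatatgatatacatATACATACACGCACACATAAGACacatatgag
In Mir669a-1 the 5′ sequence was read 28 times and the 3′ sequence 43 times over both libraries. In Mir466b-1 the 5′ sequence had 3 reads, all in KO, and the 3′ sequence 23. These reads do not belong to the printed copies alone. The 5′ and 3′ sequences of Mir669a-1 matched 15 and 13 hairpins of the cluster, and those of Mir466b-1 matched 9 and 15. The Mir466b-1 5′ sequence also matched 1 hairpin outside the cluster.

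The 119 hairpins spanned 53.0 kb, from chr2:10465287 to chr2:10518279, and lay 94.8 to 147.8 kb from the start of Sfmbt2. All were on the plus strand and none overlapped an exon. The intron that holds them is intron 10 of 1 annotated protein-coding transcript of Sfmbt2 and intron 11 of another, both with 23 exons. By name, 29 hairpins belonged to Mir669, 23 to Mir466, 14 to Mir467 and 5 to Mir297, and 48 had only a Gm number. Only 88 distinct hairpin sequences occurred among the 119. The 10 genes named Mir467a recurred with a median spacing of 2462 nt, and the gaps ranged from 2413 to 4880 nt.

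Reads were found for 82 hairpins, where a shared read counted for each hairpin that it matched. Mir669h and 9 Gm hairpins matched the same single KO read. Gm22635, Gm23571 and Gm25680 matched another single KO read, and none of these hairpins had a WT read. Of the 71 hairpins with a Mir name, 66 had a read, and Mir669k, Mir669g, Mir669j, Mir466l and Mir669i had none. Of the 48 Gm hairpins, 16 had a read and 32 had none. The count of 0, read as a limit of 3 reads, allowed a level of up to 1.19 RPM in WT and 1.17 RPM in KO. Hairpins with reads were shorter, with a median of 90 nt against 121 nt, and RNAfold gave them a lower predicted folding energy per nucleotide, with a median of −0.409 kcal/mol and a range of −0.573 to −0.263 against −0.275 and −0.423 to −0.209. The ranges of folding energy overlapped. Hairpins with reads shared sequence, so these medians are given without a test.

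**Figure D1:**
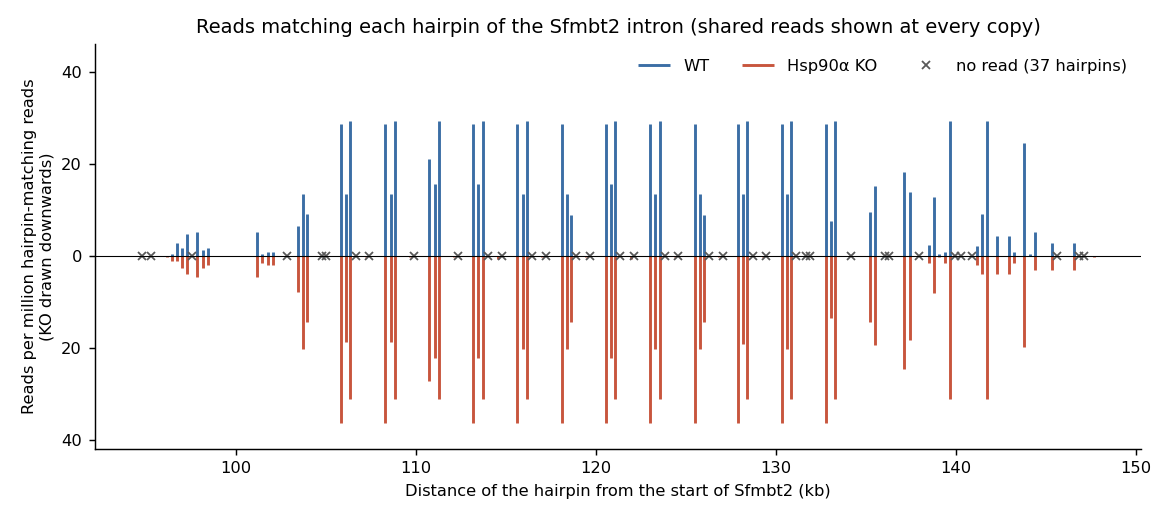
Level (RPM) of each hairpin in WT (upwards) and Hsp90α KO (downwards), against the distance of the hairpin from the start of Sfmbt2 in kb. Crosses mark the 37 hairpins without a read, and the equal bars across the middle of the array are near-identical copies that share their reads.

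Few reads told the copies apart. Of all reads of the cluster, 39.1% matched 1 hairpin, 11.7% matched 2 to 9 and 49.1% matched 10 or more, with a highest number of 16. The 82 hairpins held 41 different sets of reads, and 24 hairpins had reads of their own. The equal bars in the map of the intron are therefore the same reads drawn at each copy, and which copy they came from cannot be told apart. The hairpins with reads of their own included Mir467c, Mir467d, Mir467e and Mir669c.

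The cluster gave 380 reads in WT and 438 reads in KO. These were 0.0151% (95% Wilson interval 0.0136 to 0.0167) and 0.0171% (0.0156 to 0.0188) of the hairpin-matching reads. The cluster was a low-abundance source of miRNA in both fetal testis libraries. Its leading product ranked 266 among 1297 miRNA products grouped in the same way. The reads had 154 distinct sequences, of which 74 occurred in both libraries, 37 only in WT and 43 only in KO. No sequence found in 1 library alone had more than 5 reads, and 65 of the 154 were read once in all.

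Shared sequence with other annotated hairpins and transcripts touched few of these reads. Introns of other genes and intergenic sequence were not searched, so reads from such sequence cannot be told apart from those of the cluster. Hairpins outside the cluster also matched 2 WT and 14 KO reads, so this overlap lay mostly in KO. Transcripts of other genes that are not miRNAs matched 5 and 5. The antisense strand of the hairpins held 0 WT and 2 KO reads. The 10 hairpins of the same families elsewhere in the genome, Mir466f-4, Mir466i, Mir466j, Mir466k, Mir466q, Mir467f, Mir467g, Mir467h, Mir669n and Mir297-1, had 0 WT and 3 KO reads that the cluster did not share. The exons of the host gene gave 5 WT and 2 KO reads, of which 2 and 2 matched no other gene.

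The design sets the KO library against the WT library. Over the whole cluster the level was 150.6 RPM in WT and 171.0 RPM in KO, a KO/WT ratio of 1.14 (95% Clopper-Pearson interval 0.987 to 1.31), which did not pass an exact conditional binomial test (two-sided p = 0.0745, adjusted p = 0.174 over 7 sets). It passed when all reads of each library were the total (1.32, exact p = 7.31e-05) and with reads of 20 to 23 nt only (1.17, exact p = 0.0447), neither adjusted. Without the reads that also matched a hairpin outside the cluster, it was 1.10 (exact p = 0.168, not adjusted). All other hairpins together gave 2522704 WT and 2561053 KO reads and set the scale. In RNA of whole testes, fewer cells of a type and less RNA per cell cannot be told apart.

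The arms and families of the cluster did not give equal ratios. The 5′ arms rose from 92.7 to 117.9 RPM, with 234 WT and 302 KO reads and a ratio of 1.27 (1.07 to 1.51; exact two-sided p = 0.00645, adjusted p = 0.0282). Without reads that also matched a hairpin outside the cluster, they had 233 WT and 291 KO reads. The ratio was then 1.23 (1.03 to 1.47; exact p = 0.0183), and adjusted p-values were not computed for this setting. The 3′ arms had 146 WT and 136 KO reads and a ratio of 0.918 (0.721 to 1.17; exact p = 0.475, adjusted p = 0.555). The share of reads from the 3′ arm was 38.4% (Wilson interval 33.7 to 43.4) in WT and 31.1% (26.9 to 35.5) in KO. The difference between the arms, a ratio of ratios of 1.39, did not pass Fisher's exact test after adjustment over 4 differences (p = 0.0324, adjusted p = 0.0647).

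Mir467, the family whose 5′ arm carries the AAGTG sequence, rose from 55.1 to 74.2 RPM. It had 139 WT and 190 KO reads and a ratio of 1.35 (1.08 to 1.69; exact p = 0.00806, adjusted p = 0.0282). Its 5′ arms, with 118 and 167 reads, had a ratio of 1.39 (1.09 to 1.78), and its 3′ arms, with 21 and 23 reads, a ratio of 1.08 (0.571 to 2.05). Mir467 was the only named family of the cluster that passed the test with these settings. Its 118 and 167 5′ reads are part of the 234 and 302 reads of all 5′ arms. The results for the 5′ arms and for Mir467 are therefore not separate, and the 5′ arms without Mir467 were not tested. When each distinct sequence was counted once, neither the 5′ arms (1.37, exact p = 0.0709) nor Mir467 (1.27, exact p = 0.430) passed, and Mir467 did not pass with 1 mismatch allowed (1.23, exact p = 0.0559).

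Mir669, the largest family by hairpins, had 158 WT and 147 KO reads, or 62.6 and 57.4 RPM, and a ratio of 0.916 (0.727 to 1.15; exact p = 0.457, adjusted p = 0.555). Its 5′ arms stood at 1.04 (0.776 to 1.38) and its 3′ arms at 0.731 (0.488 to 1.09). These values below 1 for Mir669 and for the 3′ arms of the whole cluster turned to 1.07 and 1.07 when all reads of each library were the total in place of hairpin-matching reads, a change of scale that multiplies every ratio by 1.16, or 0.22 on the log2 scale. The difference between Mir467 and Mir669, a ratio of ratios of 1.47, had p = 0.0170 in Fisher's exact test and adjusted p = 0.0647, so that the 2 families were not shown to differ.

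Mir466 had 74 WT and 88 KO reads and a ratio of 1.17 (0.850 to 1.62; exact p = 0.346, adjusted p = 0.555). It was the family with most of its reads on the 3′ arm, with 57 WT and 63 KO reads there against 17 and 25 on the 5′ arm. Mir297, with 8 and 11 reads, had a ratio of 1.35 with an interval of 0.496 to 3.88 (exact p = 0.648). Reads found only in Gm hairpins numbered 1 in WT and 2 in KO.

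**Figure D2:**
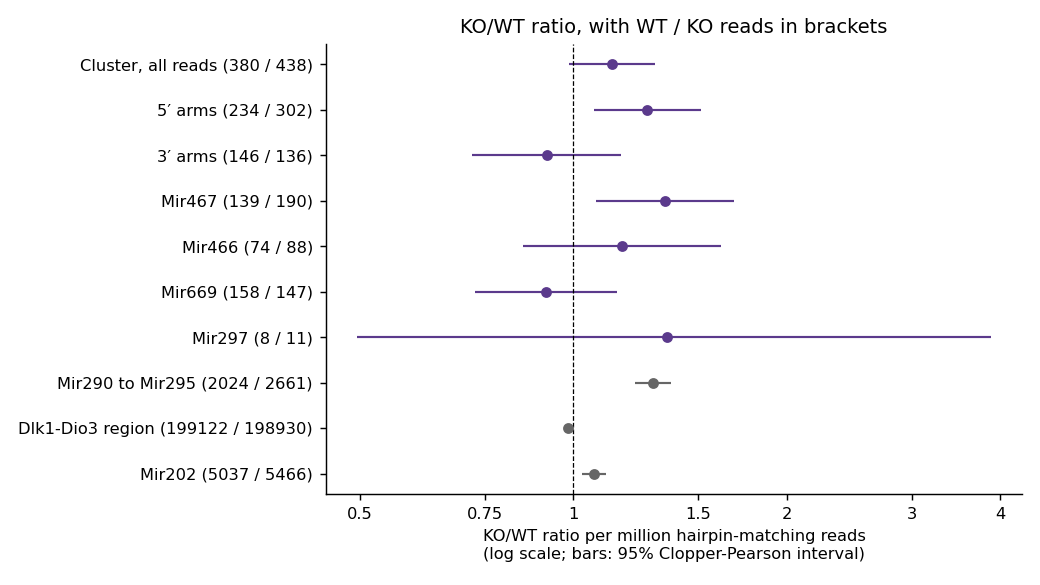
KO/WT ratio of the levels (RPM), on a log axis, for the cluster, its arms and its 4 named families (purple) and for 3 comparison sets (grey), with 95% Clopper-Pearson intervals and the WT and KO reads in brackets. Among the purple points only the intervals of the 5′ arms and of Mir467 lie above 1, and the narrower grey intervals of Mir290 to Mir295 and of Mir202 also lie above 1.

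Mir290 to Mir295, the cluster of pluripotent cells and germ cells, moved the same way as Mir467. Its 9 hairpins went from 802.2 RPM in WT to 1039 RPM in KO, a ratio of 1.30 (1.22 to 1.37), and 7 of the 9 had reads. Mir202 of the supporting cells had a ratio of 1.07 (1.03 to 1.11), the 6 mesenchyme and muscle hairpins 1.02 (1.01 to 1.03), and the blood hairpins 0.799 (0.719 to 0.888), with 3 of 5 listed blood genes annotated. The vessel pair Mir126a and Mir126b, of which 1 had reads, summed to 5133 RPM in WT and 5147 RPM in KO. The imprinted Dlk1-Dio3 region, with 66 hairpins, had a ratio of 0.984 (0.978 to 0.990). The germ cell markers thus differed between the libraries in the same direction as the 5′ arms of the cluster, and their part in the result was not tested.

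The Mir467 5′ arms, though not the other families of the cluster, shared more than a direction with Mir290 to Mir295. Among the 1738 mature mouse miRNAs in the RefSeq table used here (GRCm38.p6), 8 carried AAGUGC at bases 2 to 7, and 5 of them came from Mir290 to Mir295. That table is not complete, since it listed 0 of the member hairpins, so 8 is a count within it and not for the mouse. The sequences below show the shared bases with the seed in capitals, for comparison with Mir467a and Mir467c above.
miR-290a-3p: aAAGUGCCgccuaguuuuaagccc
miR-291a-3p: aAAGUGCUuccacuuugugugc
miR-294-3p: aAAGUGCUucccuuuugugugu
miR-295-3p: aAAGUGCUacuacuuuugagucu
miR-302b-3p: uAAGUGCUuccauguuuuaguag
Bases 2 to 8 of the leading Mir467a sequence were those of miR-290a-3p, which lies on the plus strand at chr7:3218674-3218697, and the letters after the seed differed. A match of letters is a description and says nothing about targets.

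Reads with AAGTGC at bases 2 to 7 numbered 79 in WT and 109 in KO for the Sfmbt2 cluster, or 31.3 and 42.6 RPM, with a ratio of 1.36 (1.01 to 1.84; exact p = 0.0409, not adjusted). All of them are reads of the Mir467 5′ arms already counted above, and the hexamer was chosen after the counts had been seen. This ratio is therefore not a separate result. Mir290 to Mir295 gave 1061 and 1415 such reads, or 420.5 and 552.4 RPM, and a ratio of 1.31 (1.21 to 1.42). Mir350 gave 36 and 37, Mir93 10 and 8, and Mir302 3 and 4. For the full seed AAGTGCC the Sfmbt2 cluster gave 20.2 RPM in WT and 26.9 RPM in KO, a ratio of 1.33 whose interval of 0.915 to 1.95 held 1 (exact p = 0.122, not adjusted). Mir290 to Mir295 gave 19.4 and 34.7 RPM with this seed, a ratio of 1.79 (1.25 to 2.59). The Sfmbt2 cluster was thus a source of this seed of about the size of Mir290 to Mir295 in WT, although it gave far fewer reads in all.

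The 40 products of the cluster were uneven, and the first 10 held 80.0% of its reads. The leading product came from the 5′ arm of Mir467a and Mir467b, which share it in 12 hairpins. It had 52 reads in WT and 70 in KO, or 20.6 and 27.3 RPM, and a ratio of 1.33 (0.913 to 1.94). Its start was sharply set, with 98.4% of reads beginning at the same base.

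The second product came from the 3′ arm of Mir669a and Mir669o, in 13 hairpins that did not include Mir669a-3. It had 53 and 43 reads, or 21.01 and 16.8 RPM, and a ratio of 0.799 (0.522 to 1.22). The 5′ product of Mir669a is shared by 16 hairpins, which include Mir669a-3, Mir669p-1 and Mir669p-2 but not Mir669o. It lay on the other side of 1, with 21 and 37 reads, 8.32 and 14.4 RPM and a ratio of 1.74 (0.990 to 3.12). It had the highest ratio of the 11 products.

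The third product, from the 3′ arm of Mir466b and its relatives, was read from several starts. It had 43 and 51 reads over 16 hairpins, or 17.0 and 19.9 RPM, with a ratio of 1.17 (0.763 to 1.80), and 47.9% of its reads began at the first base of the printed sequence. Another 29.8% began 1 base earlier, which gives the seed ATACATA in place of TACATAC, and the rest began elsewhere or came from variant copies that do not share the printed letters.

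Mir467d, Mir467e and Mir467c each had a 5′ product that matched no other hairpin. Mir467d had 26 and 40 reads and a ratio of 1.52 (0.902 to 2.59), Mir467e 24 and 37 reads and a ratio of 1.52 (0.885 to 2.65), and Mir467c 16 and 20 reads and a ratio of 1.23 (0.606 to 2.54). All 3 therefore stood higher in KO in RPM, with intervals that held 1. Mir467d was read from 2 starts, with 40.9% of reads giving the seed TAAGTGC and 59.1% the seed AAGTGCG. The latter is the seed of Mir467c, and the 2 hairpins together gave all 68 reads of the cluster with it.

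Mir669c stood lower in KO where the Mir467 products stood higher. This hairpin has a 5′ product of its own, with 32 reads in WT and 21 in KO, or 12.7 and 8.20 RPM, a ratio of 0.646 (0.354 to 1.16). All of its 53 reads began at the same base. It had the lowest ratio of the 11 products.

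The other 3 products had ratios near 1 but wide intervals. The 3′ product of Mir467a, which Mir467d shares, had 20 and 23 reads and a ratio of 1.13 (0.595 to 2.17). Mir669d had 13 and 12 reads and a ratio of 0.909 (0.379 to 2.16). Mir669b with its copies in Mir669m-1 and Mir669m-2 had 11 and 10 reads and a ratio of 0.895 (0.341 to 2.32). Of the 11 products 7 stood higher and 4 lower in KO in RPM, and 0 of the 11 intervals lay wholly above or below 1. The 29 products with fewer than 20 reads also had intervals that held 1.

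**Figure D3:**
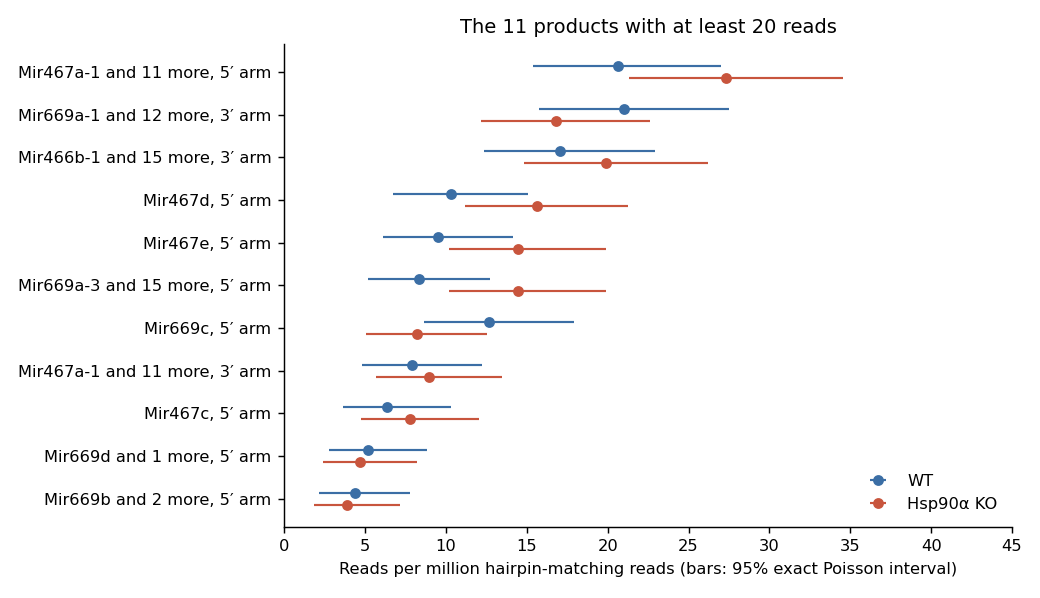
Level (RPM) in WT (blue) and Hsp90α KO (red) for the 11 products with at least 20 reads, in order of their reads, with 95% exact Poisson intervals. The intervals of the libraries overlap for all 11 products, from the Mir467a 5′ product at 20.6 and 27.3 to the Mir669b product at 4.36 and 3.90.

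With 1 library per genotype, a feature was called by size alone, past 1.5-fold in either direction with at least 20 reads. Of the 11 products, 3 were called higher in KO (Mir669a 5′ arm, Mir467d and Mir467e), where 5.58% of the 466 products of all miRNAs were, and 1 was called lower (Mir669c), where 9.23% of all were. The median ratio was 1.17 over the 11 and 0.981 over all 466. Low counts reach 1.5-fold more easily, and of the 245 products with 20 to 200 reads 9.8% were called higher and 14.3% lower.

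By arm of each annotated hairpin, with arms that held the same reads merged, 14 features had at least 20 reads and 4 were called higher and 2 lower, beside 3.47% and 26.5% of all 634, or 6.23% and 31.2% of those with 20 to 200 reads. The median ratio was 1.28 for the 14 and 0.917 for all. By hairpin, 54 members had at least 20 reads, of which 11 were called higher and 3 lower, beside 3.88% and 35.7% of all 619 hairpins, or 10% and 21.8% of those with 20 to 200 reads. The median was 1.27 for the 54 members and 0.875 for all. The 619 hairpins include the 54 members, and the 24 of them called higher include these 11. Hairpins that share reads were each counted, among the members and among all 619. The shares over all products and all arms include those of the cluster as well.

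The 11 hairpins called higher were mostly copies. They were 5 genes named Mir466b and Gm25943, each with the same 34 WT and 52 KO reads, Mir466b-3, Mir669a-3, Mir669p-1, Mir669p-2 and Mir467e. Mir466b-3 had the highest ratio of the 54, 1.81, from 19 and 35 reads. The 3 called lower were Mir466d, Mir669c and Mir466h, and Mir466d had the lowest ratio, 0.428, from 23 and 10 reads. Mir466d and Mir466h share a 3′ product that was read 8 times in WT and 2 times in KO. When hairpins with identical reads were counted once, 5 of 22 were called higher and 3 lower. The split of 11 higher and 3 lower became 21 and 1 with all reads of each library as the total, 4 and 3 without Mir10b in the total, and 14 and 0 of 39 with each distinct sequence counted once.

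Single sequences showed the same spread. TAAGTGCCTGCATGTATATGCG, the leading Mir467a sequence, was read 34 times in WT and 39 times in KO, and its form without the last base, TAAGTGCCTGCATGTATATGC, 14 and 21 times. For Mir669a, ACATAACATACACACACACGTA was read 26 and 17 times, and ACATAACATACACACACACGTAT, longer by 1 base, 18 and 16 times. ATAGTTGTGTGTGGATGTGTGTAT of Mir669c was read 22 and 12 times. The printed forms of Mir467a, and those of Mir669a, differ at the 3′ end and share their first base.

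Grouped by seed, AAGTGCC was the largest group with 51 WT and 69 KO reads, 14.7% of the cluster. CATAACA followed with 51 and 36, GTTGTGT with 30 and 43, AAGTGCG with 28 and 40, and TAGTTGT with 32 and 21. AAGTGCC and AAGTGCG, both of Mir467, and GTTGTGT of the Mir669 5′ arm had more reads in KO, and CATAACA and TAGTTGT, both of Mir669, had fewer. These groups hold the reads of the products above, and only AAGTGCC was tested, with the result given beside Mir290 to Mir295.

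The reads had the size of miRNAs. Those of 20 to 23 nt made up 83.9% of the cluster in WT (79.9 to 87.3) and 86.3% in KO (82.8 to 89.2), against 90.6% and 90.7% of all hairpin-matching reads. The cluster held more RNAs of 24 nt, 14.2% in WT and 10.7% in KO against 6.80% and 7.06% of all, and 52 of the 54 WT reads and 42 of the 47 KO reads of this length came from the 5′ arms. Mir669 5′ arms had 47.9% of reads at 24 nt in WT and 35.6% in KO, with intervals of 38.2 to 57.8 and 27.0 to 45.4, while Mir467 5′ arms had 0 of 118 and 0 of 167, with upper bounds of 3.15% and 2.25%. The Mir669a and Mir669c sequences of the 5′ arm printed first are 24 nt long, and those of Mir467 are 21 or 22 nt.

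**Figure D4:**
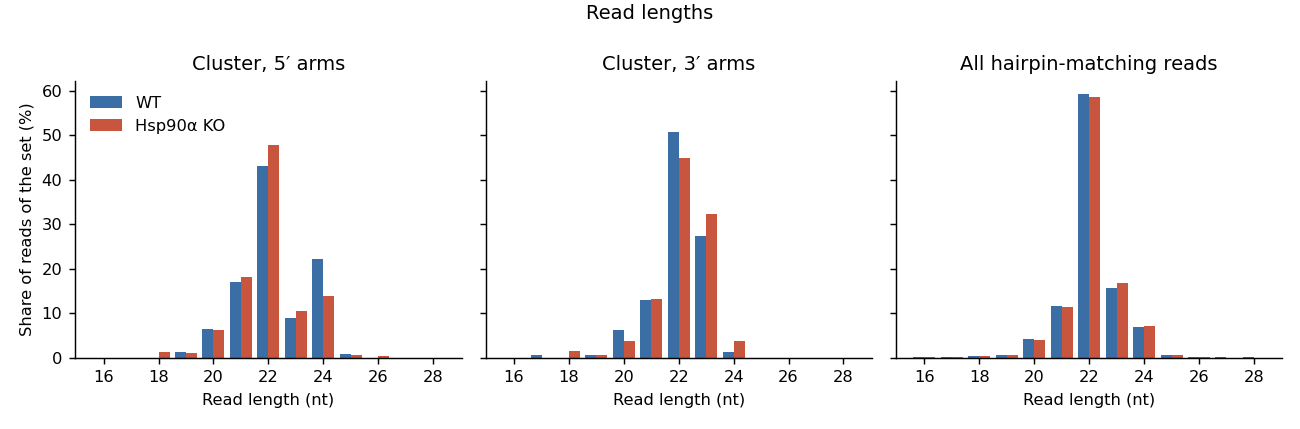
Length in nt of the reads from the 5′ arms and the 3′ arms of the cluster and of all hairpin-matching reads, as a share (%) of the reads of each set in WT (blue) and Hsp90α KO (red). The 5′ arms have a second peak at 24 nt, 22.2% in WT and 13.9% in KO, and the 3′ arms have 1.37% and 3.68% there.

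Uracil was a less frequent first base in the cluster than in all miRNAs. Read as T, it opened 41.1% of its reads in WT (36.2 to 46.1) and 46.8% in KO (42.2 to 51.5), against 72.6% and 71.5% of all hairpin-matching reads, or 58.6% and 56.9% when the abundant Mir10b was left out. Adenine opened 55.3% and 50.2% of the reads of the cluster against 18.4% and 18.2% of all. The families split on this base, since 79.7% of WT reads from Mir467 5′ arms began with T and 89.6% of those from Mir669 5′ arms with A. G and T made up 69.9% of the bases of the 5′ reads in WT and 68.5% in KO, and A and C made up 79.1% and 78.5% of those of the 3′ reads, whereas in all hairpin-matching WT reads G and T made up 51.1% and A and C 48.9%.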

How the data were processed

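Total RNA of 20 pooled whole testes per genotype was made into small RNA libraries with a TruSeq kit and read on MiSeq as 50-bp single ends. The deposited values are the authors' read counts, 1 for each distinct insert of 11 to 48 nt left after adaptor removal, and they carry no scaling. The submitters' processing notes name the genome build mm9, which was not used here. No molecular identifiers were used, so that reads of 1 sequence can be copies of 1 molecule.

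Inserts shorter than 16 nt were dropped, and the others were placed without mismatches on the hairpin transcripts of GENCODE release M21 (GRCm38), and counts were divided by the 2523084 WT and 2561491 KO hairpin-matching reads. A count of 3 reads, taken as the limit that 0 allows, was 1.19 and 1.17 reads per 1000000 (RPM). The RefSeq table used here, with 1738 mature sequences, listed 0 under the symbols of the member hairpins, so the arm of a read was set by its midpoint in the hairpin. Ratios were tested with two-sided exact conditional binomial tests on reads, adjusted (Benjamini-Hochberg) over 7 sets, and differences between ratios with Fisher's exact test, adjusted over 4, at a threshold of 0.05. Folding energies came from RNAfold 2.7.2. Tests ran in scipy 1.17.1, tables in pandas 2.3.3 and plots in matplotlib 3.10.9, under Python 3.11.15, after tests on simulated data.

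The members and lists were chosen with earlier results of these data known, and the tests by arm, family and shared hexamer were added after the counts had been seen. Named were the 10 hairpins and products with most reads, those at either end of the KO/WT ratio with at least 20 reads, the 5 most-read sequences, related hairpins elsewhere and the cell type markers. Alternatives changed the normalizing total, the read length, mismatches, shared reads, reads counted, the minimum of reads and the fold.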

Additional observations from a re-analysis of the deposited data

How the results depend on the processing

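Of 138 alternative values, 111 were classed as unchanged. For ratios this meant the same direction and side of the threshold, and for shares a value within the interval. For counts of features or reads it meant a total within 1.5-fold, whatever the split into higher and lower. Some of these values could not change, since the reads of related hairpins elsewhere are raw counts that do not depend on the normalizing total. The alternatives by arm and family, and those that merged identical hairpins, were chosen after seeing the data. With all reads as the total, the cluster ratio passed the test at 1.32 (exact p = 7.31e-05), Mir466 came to 1.36 (exact p = 0.0493, with a Clopper-Pearson interval of 0.990 to 1.88 that held 1), and the 3′ arms and Mir669 turned above 1, to 1.07 and 1.07. That total holds the reads outside hairpins, which were a smaller share of the KO library. With reads of 20 to 23 nt only, the cluster ratio was 1.17 (exact p = 0.0447) and the WT share of the 3′ arm 44.5%.

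With each distinct sequence counted once, the 5′ arms (1.37, exact p = 0.0709) and Mir467 (1.27, exact p = 0.430) no longer passed, the 3′ arms and Mir669 turned to 1.08 and 1.07, the KO share of the 3′ arm was 37.6% and the KO share of 20 to 23 nt 76.1%. With 1 mismatch allowed, Mir467 no longer passed (1.23, exact p = 0.0559) and the 5′ arms had 1.21 (exact p = 0.0251), neither adjusted. The cause of these changes was not tested. Over 10 alternatives each, the ratio ranged from 1.08 to 1.32 for the cluster, 1.21 to 1.48 for the 5′ arms and 1.23 to 1.57 for Mir467.

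The count of hairpins past 1.5-fold, 14 of 54, with 11 higher and 3 lower, became 22 (21 and 1) with all reads as the total, 7 (4 and 3) without Mir10b in the total, 4 (2 and 2) with 1 mismatch, 6 (5 and 1) without sequences read once, 8 (5 and 3) without reads also found outside, 0 of 26 at a minimum of 100 reads, 1 lower at 2-fold and 8 of 22 with identical hairpins merged, and it stayed at 14 of 39 with distinct sequences, all higher. For the arms, all reads as the total moved the split from 4 and 2 to 7 and 1, and leaving out Mir10b moved it to 2 and 2. For the arms of hairpins, 6 of 14 became 1 of 2 with distinct sequences, 3 of 16 with 1 mismatch, 0 of 1 at 100 reads and 1 at 2-fold. The 3 reads of related hairpins elsewhere became 6 with 1 mismatch and 0 without sequences read once. At these counts the interval of the most-read product ran from 0.913 to 1.94, and the other 10 of the 11 were wider on a log scale. No paired analysis was possible because each genotype has 1 library.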
